A study of Ovis aries with 32 samples.

Results

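Liver and muscle of the same lambs were compared over all the count tables of the series, with the 16 liver samples set against the 16 muscle samples and paired by the sample number, which gave 16 pairs and used 32 of the 32 samples. The lambs were Appenninica × Sarda crosses, with ages from 154 to 190 days in the labels. Each contributed 1 sample of liver and 1 of muscle taken at slaughter. The paper gives the age beside the weight at the start of the feeding trial, so the lambs may have been older when sampled. The control group (CTRL, 8 lambs) was fed alfalfa hay and a concentrate mixed with β-cyclodextrins, and the EO group (8 lambs) received the same feed with a mix of cinnamon bark, eucalyptus leaf and dill seed essential oils absorbed on the cyclodextrins. Both groups held males and females, but the sex of each lamb and the muscle that was sampled were not given in the sources used here. The tissues were pieces of whole organ, so fewer cells of a type and less RNA per cell cannot be told apart in any value below.

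The liver makes most of the proteins of blood plasma, including albumin, clotting factors and lipoproteins, and it stores and releases glucose, forms bile acids and clears foreign compounds. Skeletal muscle consists mainly of long fibres filled with contractile filaments of actin, myosin and their regulatory proteins, together with the enzymes that supply ATP to them. A few abundant messages coding for secreted or contractile proteins are known to take a large part of the mRNA in each tissue, on top of the genes that all cells use. The files identify the genes by Ensembl identifiers only and do not pair them with names, so the labelled tissues could not be checked against their marker genes and no known function is assigned to a gene below.

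Levels are given as CPM, the counts of a gene per 1000000 counts on all genes of the sample, and were not divided by gene length. Liver samples held from 1460920 to 6689488 counts on genes (median 3446397) and muscle samples from 2572638 to 14035050 (median 8742580), so the median depth was 2.54-fold higher in muscle. Of the 27054 genes in the tables, 20075 had a count in at least 1 sample and 13020 reached 1 CPM in at least 9 of the 16 samples of either tissue. The share of uniquely aligned fragments outside annotated genes ranged from 27.2 to 30.5% in muscle and from 23.6 to 48.6% in liver. It exceeded 40% in the livers of 5 lambs, of which 3 were CTRL (lambs 2, 3 and 8) and 2 were EO (lambs 14 and 16). Values without these 5 pairs are given for some of the results only.

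The tissue accounted for most of the variation between samples. Of the variance of log2(CPM + 0.5) over the tested genes, after TMM scaling (edgeR's trimmed mean of M-values, which limits the weight of a few very abundant genes), 85.4% lay between liver and muscle and 7.92% between lambs, a share that includes the 0.377% between diets. The first principal component held 85.5% of the variance and separated the 2 tissues without overlap, and the second held 5.65%. Across genes, the Spearman correlation between 2 muscle samples was from 0.904 to 0.986 (median 0.973), and between 2 liver samples it was from 0.806 to 0.977 (median 0.939). Between a liver and a muscle sample it was from 0.386 to 0.540 (median 0.493), so no such pair of samples was as alike as any pair of samples of 1 tissue.

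Most genes differed between liver and muscle. With edgeR's quasi-likelihood test and the lamb as a block, 10315 of the 13020 genes (79.2%) differed at a Benjamini-Hochberg adjusted p lower than 0.05, of which 5417 (41.6%) were higher in muscle and 4898 (37.6%) higher in liver. When the test was set against a 2-fold change, 5469 genes (42.0%) remained past the threshold, 2681 (20.6%) higher in muscle and 2788 (21.4%) higher in liver. The number of genes beyond 2-fold was therefore nearly equal in the 2 directions.

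The fitted differences are given as log2 fold changes of muscle minus liver. Their median size over all tested genes was 1.02, with a median standard error of 0.178, and the middle 50% of the genes lay between -0.997 and 1.03. The tail of genes with a very large difference was longer towards liver, since the 5th percentile was -6.08 and the 95th percentile was 4.40. A difference of more than 5 on the log2 scale (32-fold) was found for 808 genes in favour of liver (6.21%) and for 514 in favour of muscle (3.95%), and a difference of more than 8 (256-fold) for 399 (3.06%) and 188 (1.44%). In these counts the 147 tested genes without a count in muscle and the 160 without a count in liver were set at the lower bound that 3 counts over the 16 samples allow. On unscaled totals that floor was 0.0229 CPM over the deeper muscle samples and 0.0511 CPM over the liver samples, whereas the bounds used totals scaled by TMM. Larger differences could thus be measured towards liver, and the part of depth in the longer tail was not tested. At the other end, 1916 genes (14.7%) had a fitted difference smaller than 0.25 in either direction.

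The balance of directions depended on how libraries were scaled. When only the total count was used, without TMM, the median log2 fold change moved by 0.35 towards muscle, and 63.8% of 10601 called genes were higher in muscle in place of 52.5% of 10315. Beyond 2-fold, 60.1% of 5916 genes were higher in muscle in place of 49.0% of 5469. The genes most counted in liver took a larger part of the liver counts, as described below. Which direction held more genes beyond 2-fold thus turned with the scaling, whereas the change of scaling reversed the sign of 158 of the called genes and of 0 of those called beyond 2-fold.

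**Figure D1:**
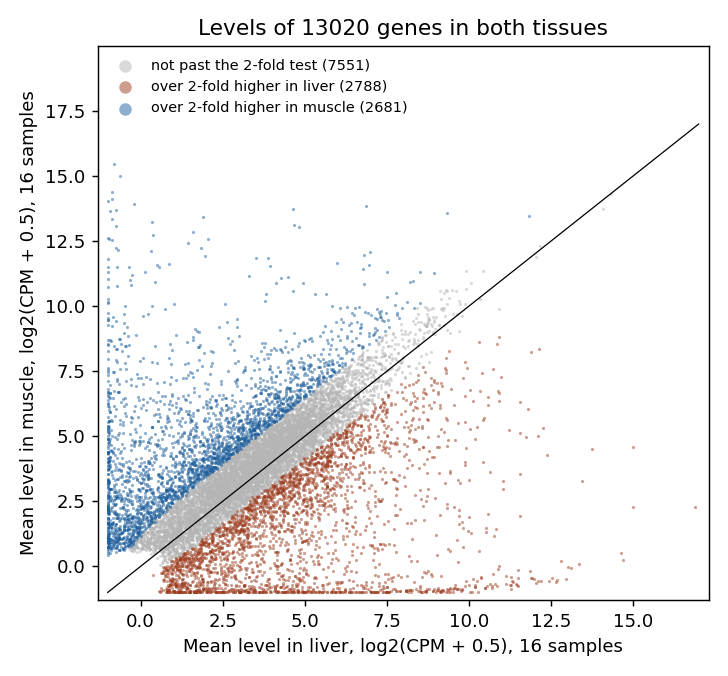
Mean level of each of the 13020 tested genes in the 16 liver samples (x axis) and the 16 muscle samples (y axis), both as log2(CPM + 0.5), with the line of equal levels. The 2788 genes past the test against 2-fold towards liver (brown) and the 2681 towards muscle (blue) lie on both sides of the 7551 others (grey), and genes along the axes are at or near 0 CPM in 1 tissue.

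The largest differences were followed in single samples for the 4 genes that the naming rule selected, which are the 2 genes with the largest fitted difference in each direction. ENSOARG00000017779 was counted at 7723 CPM in the lowest muscle sample, 14074 in the median and 34418 in the highest (16660 ± 7726, SD, n = 16). It had 0 of the 58668834 counts of the 16 liver samples. With the floor of 3 counts over the liver group, its pooled level was at least 308213-fold higher in muscle. ENSOARG00000011486 was the gene with the highest mean count in muscle, with 22575 CPM in the lowest, 47137 in the median and 54718 in the highest muscle sample (44734 ± 8822, SD, n = 16), and 4 counts were found in all liver samples together, in 4 different livers. The pooled ratio of its levels was 687376, with an exact Poisson 95% interval of 268465 to 2522793 that covers counting error only (edgeR, adjusted p = 9.5e-22 against a 2-fold change). Every muscle sample was far above every liver sample for both genes.

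The 2 genes named for liver were detected in muscle, at a low level. ENSOARG00000013782 was the most counted gene of every liver sample, with 75861 CPM in the lowest, 113272 in the median and 162927 in the highest liver (121179 ± 30948, SD, n = 16). It was found in 14 of the 16 muscle samples, with 581 counts in 131026157 and at most 17.7 CPM. The pooled ratio was 28089 (exact Poisson 95% interval of 25895 to 30520, edgeR adjusted p = 3.45e-16 against a 2-fold change). ENSOARG00000016733 had 16283 CPM in the lowest, 25947 in the median and 36012 in the highest liver sample (26182 ± 6454, SD, n = 16), and 105 counts were found over 11 muscle samples, with at most 3.80 CPM. Its pooled ratio was 33248 (27465 to 40651, edgeR adjusted p = 7.95e-17 against a 2-fold change). The levels of the 2 tissues did not overlap for either gene. The direction was that of the fit in 16 of 16 pairs for each of the 4 genes, but the naming rule required this. The rule also took only genes called beyond 2-fold. The adjusted p-values against a 2-fold change given for the named genes therefore describe genes chosen for passing that test.

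Counts were more concentrated in liver than in muscle. The single most counted gene took from 7.59 to 16.3% of the counts in a liver sample (12.1% ± 3.09, SD, n = 16) and from 3.42 to 5.47% in a muscle sample (4.61% ± 0.646). The 10 most counted genes of each sample took from 27.3 to 38.5% in liver (31.8% ± 2.76) and from 19.3 to 24.1% in muscle (21.8% ± 1.25). Both shares were higher in liver in 16 of 16 pairs, without any overlap between the tissues, and the paired difference for the 10 genes was -10.0 ± 3.14 percentage points (muscle minus liver). The exact sign-flip permutation test over the 65536 sign patterns gave p = 3.05e-05 in both cases, the smallest it allows, and an adjusted p = 0.000168 over the 11 paired measures tested (Benjamini-Hochberg).

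The difference was largest at the top of the ranking and narrowed below it. The 50 most counted genes held 48.8% ± 2.52 of the counts in liver and 44.7% ± 2.00 in muscle (exact permutation test, p = 0.000488), and the 100 most counted held 56.7% ± 2.00 and 52.9% ± 1.95 (p = 0.000397). In both cases 3 of the 16 pairs went the other way. A mean of 56.4 ± 11.9 genes held 50% of the counts in liver (33 to 78) and 78.7 ± 13.1 in muscle (60 to 100), with more genes in muscle in 13 of 16 pairs (exact permutation test, p = 0.000763). For 90% of the counts, 2441 ± 194 genes were needed in liver and 2966 ± 218 in muscle, and muscle needed more in 15 of 16 pairs (exact permutation test, p = 6.1e-05).

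**Figure D2:**
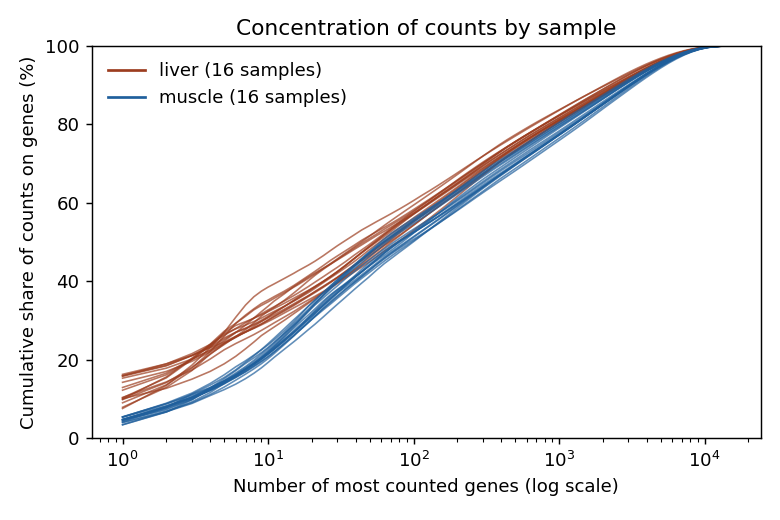
Cumulative share of the counts on genes (y axis, %) held by the most counted genes of each sample (x axis, number of genes on a log scale), with 1 line for each of the 16 liver (brown) and 16 muscle (blue) samples. At 1 gene the liver lines start between 7.59 and 16.3% and the muscle lines between 3.42 and 5.47%, and the 2 sets run closer together at 100 genes.

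A large part of this difference came with 1 gene. When the most counted gene of each sample was left out, the next 10 genes held 23.3% ± 4.86 of the remaining counts in liver (17.0 to 34.4%) and 19.4% ± 1.28 in muscle (17.8 to 22.2%), so that the tissues overlapped, and the difference fell from -10.0 to -3.94 points (exact permutation test, p = 0.0032). Without the 5 lambs of high liver share outside genes, the difference after removal of that gene was -1.96 points and did not pass the threshold (exact permutation test over 11 pairs, p = 0.0547), whereas with the gene it was -9.52 points in 11 of 11 pairs (p = 0.000977, the smallest for 11 pairs). In CTRL lambs alone the difference without that gene was -4.24 ± 6.20 points (exact permutation test, n = 8, p = 0.133) and in EO lambs -3.63 ± 3.38 (p = 0.0312).

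The most counted genes of the 2 tissues were mostly different genes. By mean CPM, the lists of the 10 most counted genes shared 2 genes (20.0% of each list), those of the 100 most counted shared 7 (7.00%) and those of the 1000 most counted shared 390 (39.0%). Among the 100 most counted genes of liver, 92 were beyond 2-fold higher in liver, 1 was beyond 2-fold higher in muscle and 7 passed in neither direction. Among those of muscle, 79 were beyond 2-fold higher in muscle, 0 in liver and 21 in neither direction. These lists were chosen on the levels of the same samples, so that a difference in favour of the own tissue was built into the choice and the counts are a description. The median log2 fold change was -12.17 in the liver list and 7.52 in the muscle list, and both medians stayed the same with the genes at 0 set at their bound. Among the 1000 most counted genes, 589 of the liver list and 520 of the muscle list were beyond 2-fold in favour of their tissue, with medians of -2.22 and 1.30.

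The genes at the top of the ranking were followed from lamb to lamb. The same gene was first in 16 of 16 livers, whereas in muscle 2 genes shared the first place, one in 14 samples and the other in 2. In the 16 samples of a tissue, 19 different genes appeared among the 10 most counted in liver, of which 5 were there in every sample, and 17 in muscle, of which 3 were there in every sample.

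The 8 top genes of each tissue that the other list did not share were counted at a low level in the other tissue. The 8 genes of liver summed to 273547 ± 31726 CPM in liver samples and to 65.7 ± 33.1 CPM in muscle samples (23.6 to 129). The 8 genes of muscle summed to 176371 ± 14473 CPM in muscle samples and to 141 ± 48.3 CPM in liver samples (75.9 to 255). The genes were chosen for their level in one tissue, so that the contrast is a description.

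The 2 genes that were among the 10 most counted of both tissues had nearly equal mean levels. The first had 20285 ± 15992 CPM in liver and 19927 ± 3895 in muscle (log2 fold change 0.03 ± 0.31, SE, and 0.38 with library size only). The second had 17180 ± 15798 and 13686 ± 1797, and its log2 fold change of -0.11 ± 0.32 turned to 0.24 with library size only. Their levels in muscle were within 11645 to 25943 and 9151 to 16601 CPM, but in liver they spread from 6391 to 50938 and from 4011 to 46831 CPM. The higher liver values were those of the 5 livers with a share outside genes over 40%, which had 26362 to 50938 CPM of the first gene against 6391 to 19985 in the other 11, and 19066 to 46831 CPM of the second against 4011 to 16470. The most counted liver gene took 7.59 to 10.3% of the counts in those 5 livers and 9.85 to 16.3% in the other 11. The near equality of the means is thus an average of livers below and above muscle, and for both genes 10 of 16 pairs had the higher CPM in muscle.

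Counted over whole libraries, 71.3% ± 4.62 of the liver counts (62.7 to 75.9%) fell on the 2788 genes beyond 2-fold higher in liver, and 64.6% ± 1.70 of the muscle counts (62.0 to 67.9%) on the 2681 genes beyond 2-fold higher in muscle. Genes of the other direction held 3.36% ± 0.202 of the liver counts and 2.85% ± 0.253 of the muscle counts. The 7551 tested genes that passed in neither direction held 25.2% ± 4.72 in liver and 32.4% ± 1.52 in muscle. In the 5 livers with a high share outside genes, the liver-high genes held 62.7 to 67.1% of the counts, below the 70.2 to 75.9% of the other 11. These shares describe genes chosen from the same samples and were not tested.

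Genes were called restricted to a tissue when they had at least 10 CPM in all 16 samples of that tissue and less than 1 CPM in all 16 samples of the other. There were 265 such genes in liver and 139 in muscle. This is 6.51% of the 4072 genes with at least 10 CPM in all livers and 2.66% of the 5229 genes with at least 10 CPM in all muscle samples, while 3068 genes had at least 10 CPM in all 32 samples. Restricted genes were thus fewer in muscle although more genes reached 10 CPM there. After the deeper sample of each pair was thinned, 220 liver and 133 muscle genes met the rule. These CPM were not TMM-scaled, and scaling by total count alone moved genes towards muscle, as given above.

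The muscle-restricted genes, fewer in number, held the larger part of their library. Together they took from 19.4 to 24.5% of the counts of a muscle sample (21.7% ± 1.42, SD, n = 16), and the liver-restricted genes took from 12.5 to 16.2% of the counts of a liver sample (14.5% ± 0.954). In the other tissue, the 265 liver-restricted genes summed to 23.7 ± 7.21 CPM (16.3 to 44.5) and the 139 muscle-restricted genes to 9.66 ± 2.03 CPM (7.51 to 14.7). The first and strongest liver gene is not in the restricted set, because it had 1 CPM or more in 13 of the 16 muscle samples, whereas the most counted muscle gene is in it.

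By level, 40 of the liver-restricted genes had a mean over 1000 CPM, 122 lay between 100 and 1000 CPM and 103 were under 100 CPM, with a median of 157 CPM and a highest mean of 6566 CPM. Of the muscle-restricted genes, 25 were over 1000 CPM, 52 between 100 and 1000 CPM and 62 under 100 CPM, with a median of 111 CPM and a highest mean of 44734 CPM. The highest sample exceeded the lowest by 3.51-fold for the median liver-restricted gene and by 2.49-fold for the median muscle-restricted gene. No count in any sample of the other tissue was found for 45 of the 265 liver-restricted genes and for 53 of the 139 muscle-restricted genes, and at most 3 counts over all 16 samples for 114 and 89. The order of the tissues thus turned when absence of any count was asked for. The muscle libraries were deeper, and after each pair was thinned to the smaller of its 2 totals, 66 liver and 53 muscle genes had at least 10 CPM in all samples of one tissue and no count in the other.

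The restricted genes were also counted in each diet. In the 8 CTRL lambs alone 290 liver and 185 muscle genes met it, and in the 8 EO lambs alone 303 and 165. Those that met it in both diets are the 265 and 139 genes by construction, and 0 genes were restricted to liver in one diet and to muscle in the other. Without the 5 lambs of high liver share, 300 and 175 genes met the rule in the other 11 lambs.

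The number of genes detected at all did not differ between the tissues past the threshold. At an equal depth of 1460920 counts, the expected number of genes with at least 1 count was 13008 ± 162 in liver (12673 to 13276) and 13114 ± 187 in muscle (12760 to 13406). The difference of 107 ± 207 genes, muscle higher in 13 of 16 pairs, did not pass the threshold (exact sign-flip permutation test, p = 0.0587). It did pass without lamb 5 (131 genes, p = 0.0167), without lamb 10 (128 genes, p = 0.0257) or without lamb 16 (123 genes, p = 0.0363, exact tests over 15 pairs). Genes with at least 5 counts at that depth numbered 9363 ± 330 in liver and 9766 ± 244 in muscle, a difference of 404 ± 321 with muscle higher in 14 of 16 pairs (exact permutation test, p = 0.000336, adjusted p = 0.000727 over 11 measures). Without the 5 lambs of high liver share, the difference was 104 genes with at least 1 count (exact permutation test, p = 0.14). With at least 5 counts it was 300 genes in the same lambs (exact permutation test, p = 0.0107). As deposited, 17148 genes had a count in both tissues, 1900 in muscle samples only and 1027 in liver samples only. After thinning, these numbers were 16787, 1571 and 1336, so that the excess of muscle-only genes was smaller at matched depth. At 1 CPM in at least 9 of 16 samples, 10307 genes were kept in both tissues, 1450 in muscle only and 1263 in liver only.

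The direction of the difference was the same in every lamb for 47.8% of the genes by CPM. By CPM, 4011 genes (30.8%) were higher in muscle in all 16 pairs and 2213 (17.0%) were higher in liver in all 16 pairs, a total of 6224 genes. With TMM-scaled CPM the total was 5853 (45.0%) and the directions were closer, with 3178 genes (24.4%) higher in muscle and 2675 (20.5%) in liver. Between 6 and 10 pairs higher in muscle were found for 1987 genes (15.3%) on the TMM scale. Of the 5469 genes called beyond 2-fold, 4736 (86.6%) went in the direction of the fit in 16 of 16 pairs and 5198 (95.04%) in at least 15, and the least regular of them did so in 10. Of the 4846 genes called as different but not beyond 2-fold, 1117 (23.0%) went the same way in 16 of 16 pairs and the median was 14 pairs.

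**Figure D3:**
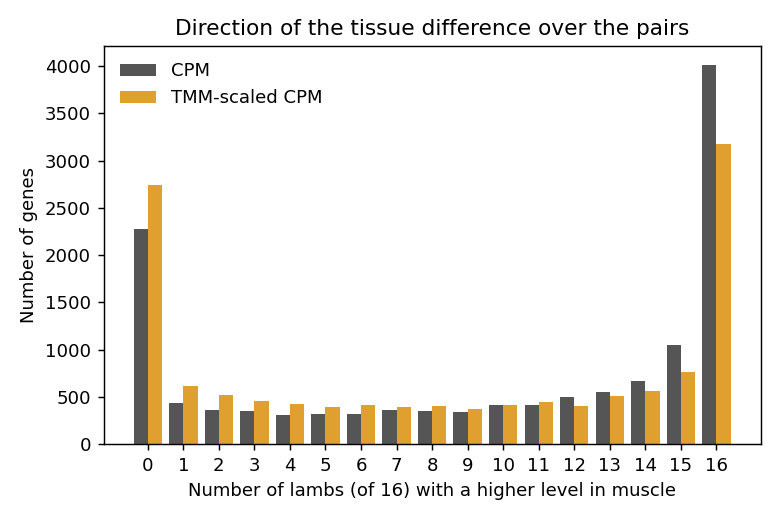
Number of the 13020 tested genes (y axis) by the number of lambs, of 16, in which the level was higher in muscle than in liver (x axis), with CPM (grey) and TMM-scaled CPM (yellow). The highest bars stand at the ends, with 4011 genes higher in muscle in all pairs by CPM and 3178 by TMM-scaled CPM, and genes with equal values in a pair are not counted as higher for that pair.

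The tissue difference was present in every lamb and varied in size. Within a pair, the median size of the log2 ratio over genes, with 0.5 CPM added, was 1.07 ± 0.126 (SD, n = 16), from 0.924 in lamb 4 (CTRL) to 1.34 in lamb 16 (EO). More than 2-fold separated the tissues for 52.3% ± 4.16 of the genes of a pair (47.1 to 60.6%), and 52.5% ± 1.23 of the genes were higher in muscle on the TMM scale (50.8 to 55.6%). The Spearman correlation between the liver and the muscle of a lamb across genes was 0.492 ± 0.0217 (0.432 to 0.522). None of these 4 measures differed between CTRL and EO lambs past the threshold (exact permutation tests over 12870 splits, p = 0.926, 0.884, 0.707 and 0.711 in the order given).

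The size of the tissue difference in a lamb followed the share of liver fragments outside genes. Pairs with a liver share over 40% had a median size of the log2 ratio of 1.14 to 1.34, and the other 11 pairs of 0.924 to 1.12. Over the 16 lambs Pearson's r was 0.80 (permutation p = 0.00014, adjusted p = 0.00042 over 3 relations) and Spearman's rho was 0.77 (p = 0.00085, adjusted p = 0.00255). Without the 2 lambs farthest from the median share r was 0.77, and within the diets it was 0.82 in CTRL (exact permutation test, n = 8, p = 0.0113) and 0.82 in EO (p = 0.0112). Within the 11 lambs of lower share the relation did not pass the threshold (r = 0.41, permutation p = 0.213). With few lambs and a narrower range of shares, this test could not decide whether the relation held among them. The liver share of the 10 most counted genes was related to the same measure with r = 0.54 (permutation p = 0.0271, adjusted p = 0.0406) and rho = 0.46 (p = 0.0707), but r was 0.18 without the 2 farthest lambs, so this relation rests on them. For the number of liver genes at equal depth r was -0.37 (permutation p = 0.158) and rho was -0.25 (p = 0.35).

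**Figure D4:**
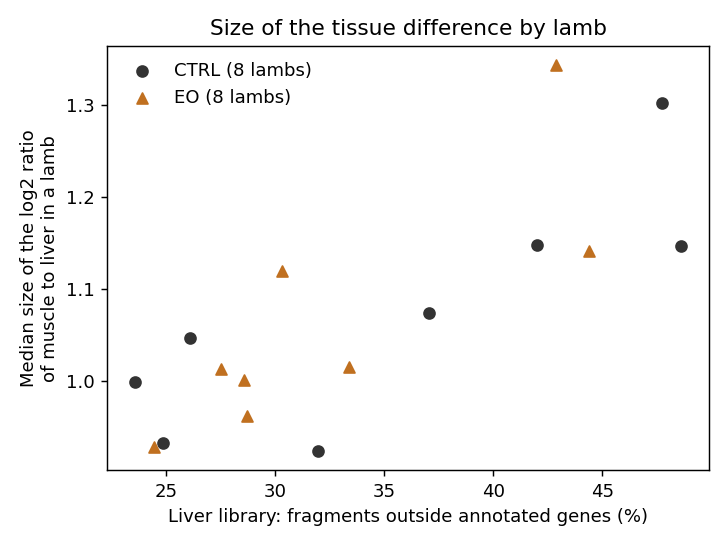
Median size of the log2 ratio of muscle to liver over the tested genes of each lamb (y axis) against the share of uniquely aligned fragments of its liver library outside annotated genes (x axis, %), with 8 CTRL lambs (circles) and 8 EO lambs (triangles). The 5 lambs beyond 40% lie between 1.14 and 1.34, above the 0.924 to 1.12 of the other 11.

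Lambs differed more from each other in liver than in muscle. For each sample, the median absolute deviation of its genes from the mean of the other lambs of the same tissue and diet was taken on the log2 scale, over the 10307 genes kept in both tissues. It was 0.414 ± 0.121 in liver (0.248 to 0.632) and 0.223 ± 0.0726 in muscle (0.145 to 0.424), higher in liver in 15 of 16 pairs (exact sign-flip permutation test, p = 9.16e-05, adjusted p = 0.000252 over 11 measures). Each deviation uses the other lambs of its group, so the paired differences are not independent. The p-values of the deviations, here and below, are therefore approximate. By gene, the SD over lambs had a median of 0.528 in liver and 0.307 in muscle, and it was larger in liver for 9014 genes (87.5%).

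Depth and the high-share livers both moved with this spread. At matched depth the deviations were 0.418 ± 0.120 in liver and 0.302 ± 0.0904 in muscle (exact permutation test, p = 0.00156), with a difference of -0.171 ± 0.101 in CTRL lambs (n = 8, p = 0.00781) and -0.0605 ± 0.116 in EO lambs (p = 0.195), where it did not pass the threshold. These 2 differences did not differ between diets past the threshold (exact permutation test over 12870 splits, p = 0.065). Without the 5 lambs of high liver share, the deviations were 0.292 in liver and 0.223 in muscle, higher in liver in 9 of 11 pairs (exact permutation test, p = 0.0234), and the SD was larger in liver for 7305 genes (70.9%). The greater spread of the liver samples was thus present at the deposited depth without those 5 livers, at a smaller size. With depth matched and the 5 lambs kept in the means, the other 11 lambs had 0.360 in liver and 0.272 in muscle. Matched depth and means without the 5 lambs were not combined, so the spread under both was not determined.

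The tissue difference was also fitted in each diet on its own, on lambs that the other fit did not use. In CTRL lambs 8981 genes (69.0%) differed, 4679 higher in muscle (35.9%) and 4302 in liver (33.0%), and 5071 (38.9%) differed beyond 2-fold, 2454 higher in muscle (18.8%) and 2617 in liver (20.1%). In EO lambs 9054 genes (69.5%) differed, 4737 higher in muscle (36.4%) and 4317 in liver (33.2%), and 5010 (38.5%) beyond 2-fold, 2410 higher in muscle (18.5%) and 2600 in liver (20.0%). Both fits called 8282 genes, which are 92.2% of the CTRL calls and 91.5% of the EO calls, and 0 of these had opposite signs. Beyond 2-fold, 4634 genes were called in both, which are 91.4% of the CTRL calls and 92.5% of the EO calls, with the same sign in each case. Without the lambs of high liver share, 4517 called genes were higher in muscle and 4270 in liver in CTRL lambs. In EO lambs these numbers were 4270 and 4584, so that more genes were higher in liver there. Across the 13020 genes, which are not independent replicates, the log2 fold changes of the 2 diets had a Pearson's r of 0.991 and a Spearman's rho of 0.982, and r was 0.987 over the 10307 genes kept in both tissues. The sign was the same for 12212 genes (93.8%), and the median size of the difference between the diets was 0.195 on the log2 scale (95th percentile 0.897).

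**Figure D5:**
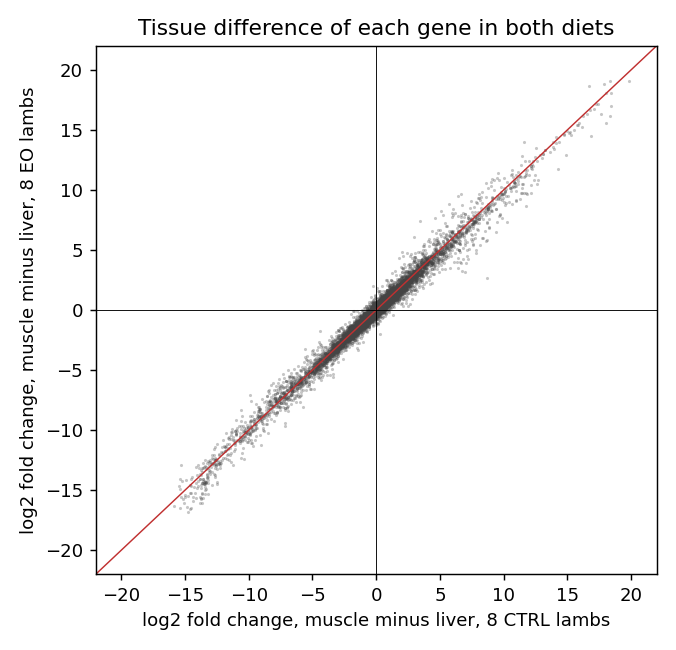
Fitted log2 fold change of muscle minus liver of each of the 13020 tested genes in the 8 CTRL lambs (x axis) and in the 8 EO lambs (y axis), with the line of equal values. The genes follow the line over the whole range, with a Pearson's r of 0.991, and for genes without counts in a tissue the values at the ends depend on the prior count of the fit.

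No gene showed a tissue difference that changed with the diet past the threshold. The interaction of tissue and diet, tested with edgeR's quasi-likelihood test with the lamb as a block, called 0 of 13020 genes (0.0%), with a smallest adjusted p of 1, and 237 genes (1.82%) had an unadjusted p lower than 0.05. The share of 1.82% is lower than evenly spread p-values would give, so the test may be conservative. DESeq2 also called 0 genes, with 203 at an unadjusted p lower than 0.05. Males and females were pooled in these tests, since the sex of each lamb was not given. The paper reports diet effects in liver that differed between the sexes, and effects of that kind were not tested here. With the share outside genes as a covariate, edgeR called 0 genes, with 467 at that level. Without the 5 lambs of high liver share it called 0 genes, with 285 at that level. The median standard error of the interaction was 0.359 and the median half-width of its 95% interval was 0.743 on the log2 scale. Both are approximate, since they were derived from the test statistic. The interval lay within -1 and 1 for 6942 genes (53.3%) and within -2 and 2 for 11476 (88.1%). For the other genes the interval did not exclude a change of the tissue difference by 2-fold, or by 4-fold. The diets also did not differ past the threshold in the tissue difference of the share held by the 10 most counted genes, which was -10.4 ± 3.77 points in CTRL lambs and -9.57 ± 2.56 in EO lambs (exact permutation test, p = 0.6).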

How the data were processed

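The authors trimmed paired reads of poly-A libraries with Trimmomatic 0.33, aligned them with STAR 2.4.0.1 to Ovis aries v.3.1 and counted them per Ensembl gene with HTSeq 0.6.1. The deposited values are raw counts, without normalization, for 27054 genes and 5 HTSeq counters, which were dropped from totals and tests. The share outside genes is the counter of fragments on no feature divided by its sum with fragments on genes and ambiguous fragments. The strand setting was not given in the sources used here, so overlapping and antisense genes cannot be told apart, and genes with near-identical copies are uncertain.

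Tissue was tested with edgeR 4.0.16 (TMM, glmQLFit, glmQLFTest, and glmTreat against a log2 fold change of 1) in R 4.3.3 with the lamb as a block, and DESeq2 1.42.0 as an alternative, with Benjamini-Hochberg adjustment and a threshold of 0.05. Standard errors of the edgeR log2 fold changes were derived from the fitted coefficient and the F statistic of the quasi-likelihood test. They and their intervals are therefore approximate, above all for genes with few counts in 1 tissue. The pairing rests on the sample number, with equal diet and age in both tissues, and on tissues taken from all lambs. Deviations of the 2 tissues of a lamb correlated with a mean of 0.109 (-0.236 to 0.432), against -0.0162 between different lambs. Single values were compared with two-sided exact permutation tests and relations with 100000 permutations (SciPy 1.17.1). The fits of tissue and of its interaction with diet were tested on simulated data. In these a small part of the genes was changed, as many up as down. A difference in most genes, as found between these tissues, was not simulated.

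Genes, measures and tests were chosen with earlier results of these data known. The rule for named genes took those with the largest log2 fold change beyond 2-fold, in 1 direction in all 16 pairs and with a mean of at least 50 CPM, limited to 2 per direction because the identifiers have no names. Gene lists, isozyme pairs, markers and promoters planned by symbol could not be used. Each lamb counts as a replicate, so p-values measure the spread between lambs, with 1 library per tissue and lamb. Those of the deviations are approximate, since these values share reference lambs.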

Additional observations from a re-analysis of the deposited data

Results flagged for a closer look

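For each measure, the 8 samples or pairs of a group were searched for one that stood far from the others by Dixon's criterion. In 60 groups, 2 such values were found, where chance gives about 1 in 20, or 3.

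In muscle of the CTRL group, lamb 8 deviated from the other lambs by a median of 0.424 on the log2 scale, against 0.255 for the next sample and 0.145 for the lowest. The liver of lamb 8 was also the one with the highest share of fragments outside genes, 48.6%. In the EO group, the Spearman correlation between the liver and the muscle of lamb 16 across genes was 0.432, against 0.481 for the next pair and 0.516 for the highest. The liver of lamb 16 had a share outside genes of 42.9%, and the same pair had the largest median size of the log2 ratio, 1.34. No further test was made of either value.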

How the results depend on the processing

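Among the alternatives run, without the replicate block (the lamb) 10372 genes differed and 5472 beyond 2-fold, and the interaction with diet called 0 genes, with 266 at an unadjusted p lower than 0.05. Of the 10315 genes called with the block, 10121 were also called without it, and the call of each of the 4 named genes was kept. Beyond 2-fold, 3126 genes were called in place of 5469 when 1 CPM was required in both tissues, where 10307 genes were tested. With 0 counts in the other tissue 45 liver and 53 muscle genes were restricted, with 100 CPM as the minimum 103 and 59, and with thinned counts and 0 counts, added after seeing the data, 66 and 53. The difference in genes at equal depth passed the threshold with at least 5 counts (404 genes) and without lamb 5, 10 or 16, and ranged from 82.4 to 131 genes when each lamb was left out in turn. In the same way the number of genes differing ranged from 10199 to 10345, and beyond 2-fold from 5438 to 5557. DESeq2 called 10365 genes and 4898 beyond 2-fold. Without the 5 lambs of high liver share, 10287 genes differed and 5452 beyond 2-fold. The within-diet fits, the spread between lambs, the removal of the most counted gene and the restricted genes without the 5 lambs were also examined under alternatives chosen after seeing the data. The alternative without mitochondrially encoded genes was not run, since the identifiers have no names. Liver depth limits the detection of low genes, and the Poisson intervals of the pooled ratios and the floors cover counting error only.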
